A study of Mus musculus with 8 samples.

Results

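The insulin-like growth factor (IGF) family comprises the ligand genes Igf1 and Igf2, the receptor genes Igf1r and Igf2r, and the binding protein genes Igfbp2 to Igfbp7. These 10 genes were taken by their symbols from a table of 47706 genes, of which 16736 had enough counts to be tested. All 10 passed that filter, and each was listed as 1 entry in a locus with no other symbol. RNA was sequenced from 8 samples of primary mouse calvarial osteoblasts, bone-forming cells released from the skullcap of newborn mice by collagenase. After 7 days of differentiation, 4 samples received parathyroid hormone (PTH), as its synthetic N-terminal fragment, and 4 received vehicle, each for 24 hours. Both groups were cultured in low serum before treatment. According to the study's methods the medium was osteogenic, whereas the sample labels call the differentiation adipogenic. The labels give no genotype, do not explain the prefix "Con" in the sample names, and do not say whether replicates came from separate preparations of cells, so p-values measure the spread between these samples, which may be technical.

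IGF-I and IGF-II are growth factors that osteoblasts make and deposit in bone matrix, and both signal mainly through the tyrosine kinase IGF1R. The receptor encoded by Igf2r, which also carries mannose 6-phosphate-tagged enzymes to lysosomes, takes up and clears IGF-II. IGF binding proteins (IGFBPs) hold the ligands outside the cell, most of them with high affinity, and proteases that cut them set the ligands free. PTH signals in osteoblasts largely through cyclic AMP, and Igf1 is a long-known PTH-responsive gene in bone.

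The samples' labels were checked with Tnfsf11, the PTH target that encodes RANKL, which had at most 1.79 CPM (counts scaled to the normalized size of each library) in vehicle samples and at least 115 CPM in PTH samples. A set of 10 osteoblast markers summed to between 86867 and 125497 CPM per sample, 8 adipocyte markers to between 486 and 564 CPM, and 7 endothelial and 6 skeletal muscle markers to at most 7.65 and 9.34 CPM. Over these 4 lists, Sp7 and Runx2 (osteoblast), Pparg (adipocyte), Tek (endothelial) and Acta1 (skeletal muscle) were downregulated, and Kdr (endothelial) and Myh3 (skeletal muscle) were upregulated. Of the endothelial markers, Emcn had 0 counts in all samples, whereas Tek had 115 to 262 counts per sample. The larger sums rested on few genes. Col1a1, Col1a2 and Sparc each had at least 13603 CPM in every sample, and no other osteoblast marker exceeded 2073 CPM. Lpl made up most of the adipocyte sum, at 378 to 446 CPM, and Adipoq had at most 4.67 CPM.

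PTH upregulated 3 of the 10 family members, Igf1, Igf1r and Igfbp5, and their increases were modest, between 1.29-fold and 1.38-fold. No family member was downregulated. The other 7, including the ligand Igf2, the receptor Igf2r and the abundant binding protein genes Igfbp2 and Igfbp4, did not pass the test. These calls come from edgeR's quasi-likelihood test with a Benjamini-Hochberg adjusted p under 0.05. Among all tested genes, 23.3% were upregulated and 22.5% were downregulated at that threshold, against 3 of 10 and 0 of 10 in the family, numbers too few to set the family apart from that background. By DESeq2 the family counts were also 3 upregulated and 0 downregulated, and at an unadjusted p under 0.05 in edgeR they were 4 and 0. All 10 fitted log2 fold changes were above 0, with a median of 0.15 against -0.00 over all tested genes. That shared sign depended on scaling, since 4 of the 10 turned negative when counts were divided by library totals alone. None of the 10 changed by a log2 of at least 1, whereas 7.36% of tested genes were upregulated and 3.88% downregulated by that much. The central 50% of all tested genes lay between -0.32 and 0.38 on the log2 scale, and the plot of fold changes shows 8 of the 10 estimates inside that band.

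**Figure D1:**
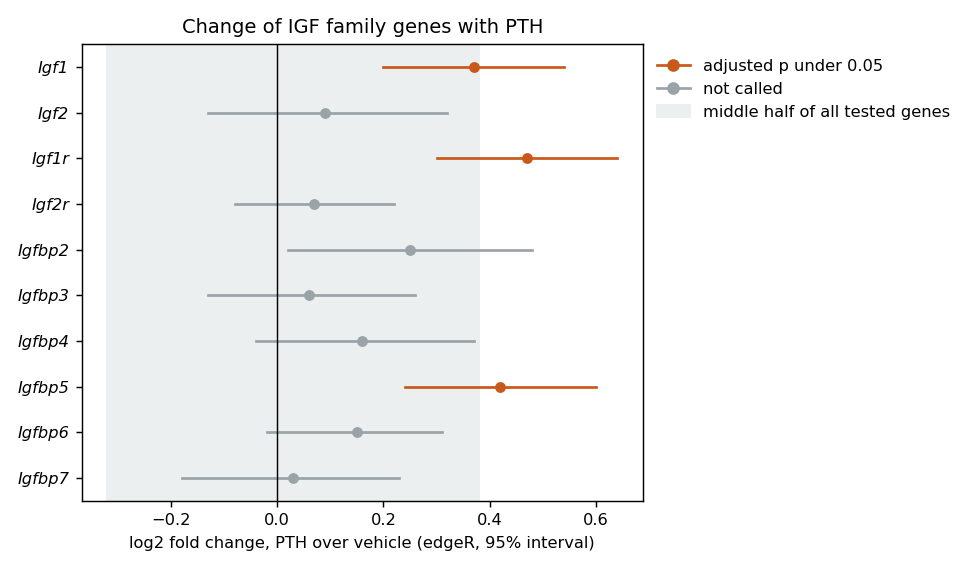
Log2 fold change of each IGF family gene with PTH over vehicle (horizontal axis), fitted by edgeR, with 95% intervals as lines and n = 4 samples per treatment. Orange marks the 3 genes with an adjusted p under 0.05, gray the other 7, and the shaded band holds the central 50% of all 16736 tested genes, from -0.32 to 0.38.

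The 3 upregulated members lie at different places in the genome. Igf1 spans positions 87858265 to 87937042 on the plus strand of chromosome 10 (GRCm38 assembly, GENCODE M21 annotation), and Igf1r spans 67952827 to 68233668 on the plus strand of chromosome 7. Igfbp5 spans 72857932 to 72874884 on the minus strand of chromosome 1, tail to tail with Igfbp2, which ends 5457 bases before it. Sequences around the annotated starts are given because PTH acts through cyclic AMP, whose classical DNA element TGACGTCA contains the shorter core TGACG. Each window holds 250 bases before and 50 bases after a start, from RefSeq on GRCm38.p6. Those of the 3 upregulated genes follow, with the window of Igf2r, whose expression did not pass the test but which has the most TGACG cores in the family. Capitals mark TGACG, or the GC box GGGCGG that binds SP-family factors, on either strand.
Igf1 (chr10:87860861-87861160, plus strand): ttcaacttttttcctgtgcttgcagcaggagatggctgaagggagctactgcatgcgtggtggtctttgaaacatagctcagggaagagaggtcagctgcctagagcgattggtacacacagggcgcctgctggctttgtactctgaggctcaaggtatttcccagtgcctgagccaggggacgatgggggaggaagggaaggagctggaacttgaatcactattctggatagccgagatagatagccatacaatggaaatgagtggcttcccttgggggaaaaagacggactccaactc
Igf1r (chr7:67952007-67952306, plus strand): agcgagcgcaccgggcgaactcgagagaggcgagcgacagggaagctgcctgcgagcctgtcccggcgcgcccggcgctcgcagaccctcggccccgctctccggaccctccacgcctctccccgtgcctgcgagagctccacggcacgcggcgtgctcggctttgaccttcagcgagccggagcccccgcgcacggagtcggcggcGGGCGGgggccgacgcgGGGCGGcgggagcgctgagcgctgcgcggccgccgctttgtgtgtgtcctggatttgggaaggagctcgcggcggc
Igfbp5 (chr1:72874816-72875115, minus strand): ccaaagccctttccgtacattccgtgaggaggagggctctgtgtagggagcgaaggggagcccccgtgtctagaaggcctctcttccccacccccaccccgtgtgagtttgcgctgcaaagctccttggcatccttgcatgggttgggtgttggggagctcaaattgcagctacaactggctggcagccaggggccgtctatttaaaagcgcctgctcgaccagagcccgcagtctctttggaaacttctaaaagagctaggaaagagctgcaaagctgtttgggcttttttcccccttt
Igf2r (chr17:12769657-12769956, minus strand): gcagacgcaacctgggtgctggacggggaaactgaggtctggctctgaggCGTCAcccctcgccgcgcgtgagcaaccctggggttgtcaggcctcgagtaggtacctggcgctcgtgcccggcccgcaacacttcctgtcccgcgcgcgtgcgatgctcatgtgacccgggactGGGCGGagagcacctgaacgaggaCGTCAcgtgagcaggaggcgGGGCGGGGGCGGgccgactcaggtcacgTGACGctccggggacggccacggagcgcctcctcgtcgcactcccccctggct
None of the RefSeq windows of the 3 upregulated members held TGACG. The Igf1 window lies inside the GENCODE span given above, and the Igf1r window ends before its GENCODE span begins. For Igf1 and Igf1r, the starts of those spans were therefore not searched. The Igf2r window held 3 copies, which began 200, 51 and 3 bases before the start. Across the family there were 14 windows for 10 genes, and TGACG occurred in 3 of them, 2 at Igf2 and 1 at Igf2r, while TGACGTCA occurred in none. Among 32851 RefSeq promoter windows of the same length, 20.8% held TGACG and 1.79% held TGACGTCA. The GC box was present in windows of 5 members, with 2 copies at Igf1r, 3 at Igf2r and none at Igf1 or Igfbp5. It was present in 35.7% of all windows, a share of windows that cannot be set against a count of members, some of which had several windows. The search for the GC box was added after the sequences had been seen. These counts describe letters in short windows only, searched on both strands, and a TGACGTCA would also have counted as TGACG.

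Igf1, which encodes IGF-I, the ligand of highest affinity for IGF1R, rose with PTH. Vehicle replicates 1 to 4 had 511, 525, 516 and 523 CPM, and PTH replicates 1 to 4 had 755, 599, 650.2 and 676 CPM. The lowest PTH sample was thus above the highest vehicle sample, and the spread was wider with PTH (coefficient of variation 9.76%) than with vehicle (1.24%). The mean rose from 519 ± 6.44 to 670 ± 65.4 CPM (SD, n = 4 per treatment), a fitted 1.29-fold increase with a 95% interval of 1.15 to 1.45 (edgeR log2 fold change 0.37, standard error 0.0780, adjusted p = 0.00214). At 24 hours, 74.6% of tested genes had a smaller log2 fold change than Igf1. In the exact two-sided permutation test on log2(CPM + 0.1), p was 0.0286 for Igf1, the smallest that 4 samples against 4 allow. In RNA from whole samples, a change in the number of cells that express a gene and a change in RNA per cell cannot be told apart. Macrophages, which also express Igf1, left transcripts in every sample. The summed level of 10 macrophage markers was 1078 to 1749.8 CPM with vehicle and 1683 to 2168 CPM with PTH, and none of the 10 was at 0 in any sample. Of the 10, 2 were upregulated, Lyz2 and Tyrobp, a count near the 23.3% of all tested genes. Lyz2 alone made up most of each sum, at 748 to 1181 CPM with vehicle and 1169.9 to 1593 CPM with PTH. Every marker other than Lyz2 and Tyrobp overlapped between treatments and was not called. The PTH sample with the most Igf1, replicate 1, had the lowest macrophage sum of the 4, and the one with the least Igf1, replicate 2, had the highest. Lyz2 (1169.9 and 1593 CPM in those samples), Mrc1, Ptprc and Tyrobp had the same lowest and highest PTH samples. The other macrophage markers did not, and Adgre1 was highest in PTH replicate 1, at 85.9 CPM.

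Igf2, which encodes IGF-II and is expressed from the paternal allele in most tissues, had the higher level per kilobase of the pair of ligands and did not pass the test. Vehicle samples had 2420.3, 2352, 2255 and 1945 CPM, and PTH samples had 2706, 2050.3, 2413 and 2406 CPM. The ranges overlapped across most of their width. Its log2 fold change was 0.09 with a 95% interval of -0.13 to 0.32 (edgeR adjusted p = 0.489), so a change as large as that of Igf1r lay outside the interval. Igf2 spans 142650766 to 142666816 on the minus strand of chromosome 7. The annotation places the antisense gene Igf2os over it, with 53 to 142 counts per sample against at least 68140 for Igf2, and how strand was treated in counting is not given in the sources used here. On the same strand, it also places the microRNA gene Mir483, with at most 2 counts, and the protein-coding gene Gm49394, from 142650769 to 142669942. Gm49394 had no counts listed under its symbol, and whether its reads were counted as Igf2 was not tested.

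Compared within each sample and per kilobase of the longest annotated transcript, Igf1 stood at 0.141, 0.15, 0.153 and 0.18 of the Igf2 level with vehicle. With PTH, that ratio was 0.187, 0.195, 0.18 and 0.188. The means were 0.156 ± 0.0167 and 0.188 ± 0.00616 (SD, n = 4), and vehicle replicate 4, with the least Igf2 of all samples, met PTH replicate 3 at 0.18. Igf2 transcripts thus remained several times as abundant as Igf1 transcripts in all 8 samples.

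**Figure D2:**
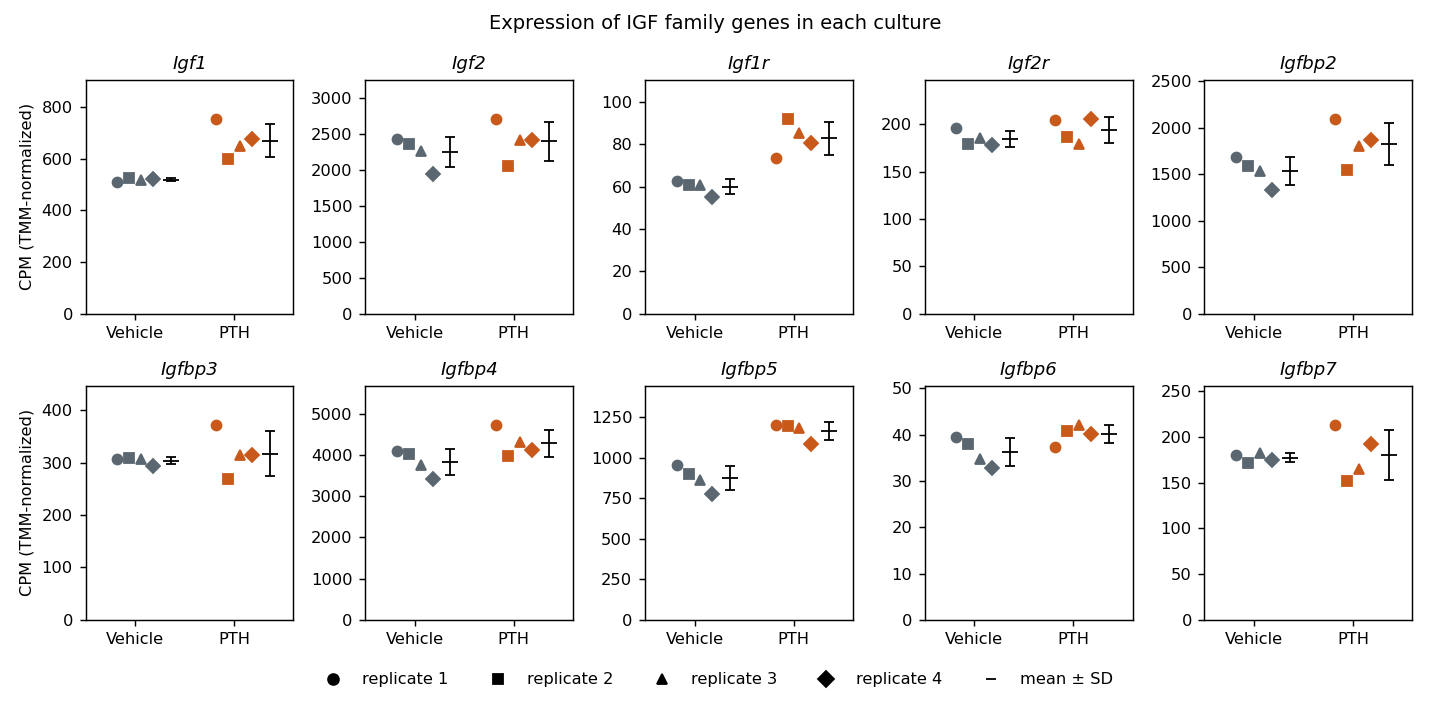
Expression of each IGF family gene in CPM (vertical axis, starting at 0) in every vehicle (gray) and PTH (orange) sample, with marker shapes for replicate numbers and bars for the mean ± SD of 4 samples. The treatments are separated for Igf1, Igf1r and Igfbp5 and overlap for the other 7 genes.

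The receptor gene Igf1r, whose product is the tyrosine kinase that both ligands activate, had the largest increase in the family. Levels were 62.9, 61.0, 61.0 and 55.0 CPM in vehicle samples and 73.7, 92.1, 85.2 and 80.6 CPM in PTH samples. All PTH samples lay above all vehicle samples. Igf1r rose from 60.0 ± 3.44 to 82.9 ± 7.73 CPM, which was 1.38-fold with an interval of 1.23 to 1.55 (edgeR log2 fold change 0.47, standard error 0.0774, adjusted p = 3.95e-04). PTH replicate 1, the sample with the most Igf1, had the least Igf1r of the PTH samples, and PTH replicate 2, with the least Igf1, had the most Igf1r.

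Igf2r encodes the clearance receptor and did not pass the test. Its levels were 196, 179, 186 and 178 CPM with vehicle and 205, 187, 179 and 206 CPM with PTH. The log2 fold change of Igf2r was 0.07, with an interval of -0.08 to 0.22 (edgeR adjusted p = 0.425), so that the increase of Igf1r was beyond its upper bound. Per kilobase, Igf1r stood at 0.253 ± 0.0101 of the Igf2r level with vehicle and at 0.335 ± 0.05 with PTH. Each PTH sample had a higher ratio, from 0.281 to 0.384, than any vehicle sample, from 0.241 to 0.265. Airn, an antisense RNA that overlaps Igf2r on chromosome 17 (12682406 to 12769664), had 156 to 262 counts per sample.

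Among the 6 binding protein genes, Igfbp5 was the member upregulated by PTH. IGFBP5 binds bone mineral and matrix and is the binding protein best known for storage of IGFs in bone. The 4 vehicle samples had 956, 901, 865 and 774 CPM of Igfbp5, and the 4 PTH samples had 1202, 1197, 1184 and 1083 CPM. The PTH samples were close to each other, apart from the lower value in replicate 4, and all exceeded the vehicle samples. The rise from 874 ± 76.6 to 1166 ± 56.4 CPM was 1.33-fold, with an interval of 1.18 to 1.51 (edgeR log2 fold change 0.42, standard error 0.0819, adjusted p = 0.0013). Chondrocyte markers summed to 409 to 463 CPM with vehicle and to 479 to 606 CPM with PTH, but they did not all rise. Of the 4 tested, 2 were upregulated, Acan and Col2a1, against 23.3% of all tested genes. The mean of Col2a1 went from 226 to 307 CPM. Sox9 and Comp, at log2 fold changes of 0.12 and -0.02, were not called and overlapped between treatments. Matn1 was not tested, at no more than 9 counts per sample. The part of macrophage and chondrocyte transcripts in the changes of family members was not tested.

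Over the family, 3 genes had every PTH sample above every vehicle sample, and none had every PTH sample below. These separations were found in 21.2% and 21.8% of all tested genes. For each of the 3, Igf1, Igf1r and Igfbp5, the adjusted p stayed under 0.05 in all 18 alternative fits, and with 1 sample left out at a time their log2 fold changes lay between 0.30 and 0.43, 0.42 and 0.52, and 0.36 and 0.46.

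Igfbp2, which spans 72824503 to 72852474 beside Igfbp5 on chromosome 1, had the highest mean level per kilobase in the family. It had 1686, 1585, 1535 and 1324 CPM with vehicle. With PTH it had 2095, 1541, 1797 and 1866 CPM, of which replicate 2 fell within the vehicle range. The log2 fold change was 0.25 with an interval of 0.02 to 0.48 (edgeR adjusted p = 0.0737). Without PTH replicate 2, Igfbp2 was upregulated (log2 fold change 0.34, edgeR adjusted p = 0.0121), and it was not called in the other 17 alternative fits.

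Igfbp4, which encodes an inhibitory binding protein and the substrate of the protease PAPP-A, was among the 10 genes of most counts in the whole table (chromosome 11, 99041244 to 99054392). It had 4109, 4039, 3758 and 3425 CPM in vehicle samples and 4735, 3983, 4316 and 4119 CPM in PTH samples, so the treatments overlapped. Its log2 fold change of 0.16 had an interval of -0.04 to 0.37 (edgeR adjusted p = 0.180).

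Igfbp3, which encodes the main carrier of IGFs in blood, was nearly level with vehicle, at 307, 308, 306 and 293 CPM, and more spread with PTH, at 372, 268, 314 and 314 CPM. PTH replicates 1, 3 and 4 lay above and replicate 2 below all 4 vehicle samples. For Igfbp3, on chromosome 11 from 7206086 to 7213923, the log2 fold change was 0.06 (interval -0.13 to 0.26, edgeR adjusted p = 0.599).

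Igfbp7 encodes a related secreted protein of low affinity for IGFs and lies on chromosome 5 from 77349240 to 77408041, where its end overlaps Polr2b on the other strand. It had 180.2, 171, 182 and 175 CPM with vehicle and 213, 152, 165 and 192 CPM with PTH, again with PTH replicate 1 highest and replicate 2 lowest of the 8. Its log2 fold change was 0.03 (interval -0.18 to 0.23, edgeR adjusted p = 0.843). Without PTH replicate 1 the log2 fold changes of Igfbp3 and Igfbp7 were -0.03 and -0.06, and that of Igfbp7 was -0.01 without PTH replicate 4.

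Igfbp6, which encodes a binding protein with a preference for IGF-II, had 39.5, 37.9, 34.7 and 32.7 CPM in vehicle samples. PTH samples had 37.4, 40.8, 42.1 and 40.1 CPM, and only PTH replicate 1 lay inside the vehicle range. The log2 fold change was 0.15 (interval -0.02 to 0.31, edgeR adjusted p = 0.136), and it was -0.08 with an offset for transcript length. Igfbp6 spans 102144362 to 102149511 on chromosome 15.

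Within each treatment, much of the spread of the family ran along the same samples. Among PTH samples, replicate 1 was highest for 7 of the 10 genes and replicate 2 lowest for 6. Among vehicle samples, replicate 1 was highest for 7 and replicate 4 lowest for 8. Igf1r and Igfbp6 went against the majority with PTH, being lowest in replicate 1. PTH replicates 1 and 2 were also the libraries of most and fewest total counts, 56090654 and 33605610, while the other 6 held 39559897 to 46757836. Replicate numbers carry no order, and these values are a description of the samples.

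Levels of different family members were compared per kilobase of the longest annotated transcript, as CPM per kilobase. With vehicle, the order from the top was Igfbp2 (1173 ± 117), Igfbp4 (1000.4 ± 81.2), Igf2 (475 ± 44.4), Igfbp7 (148 ± 4.38), Igfbp5 (145 ± 12.8), Igfbp3 (125 ± 2.93), Igf1 (73.6 ± 0.913), Igfbp6 (32.6 ± 2.76), Igf2r (20.8 ± 0.930) and Igf1r (5.26 ± 0.301). The sample ranges of the neighbors Igfbp2 and Igfbp4 overlapped, as did those of Igfbp7 and Igfbp5, and all other neighbors were separate. With PTH the order was the same except that Igfbp5 (194 ± 9.39) stood above Igfbp7 (150.3 ± 22.6), with no overlap between them, while Igfbp7 and Igfbp3 (131 ± 17.5) then overlapped and Igfbp2 and Igfbp4 still did. Igf1r remained the lowest at 7.27 ± 0.678.

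**Figure D3:**
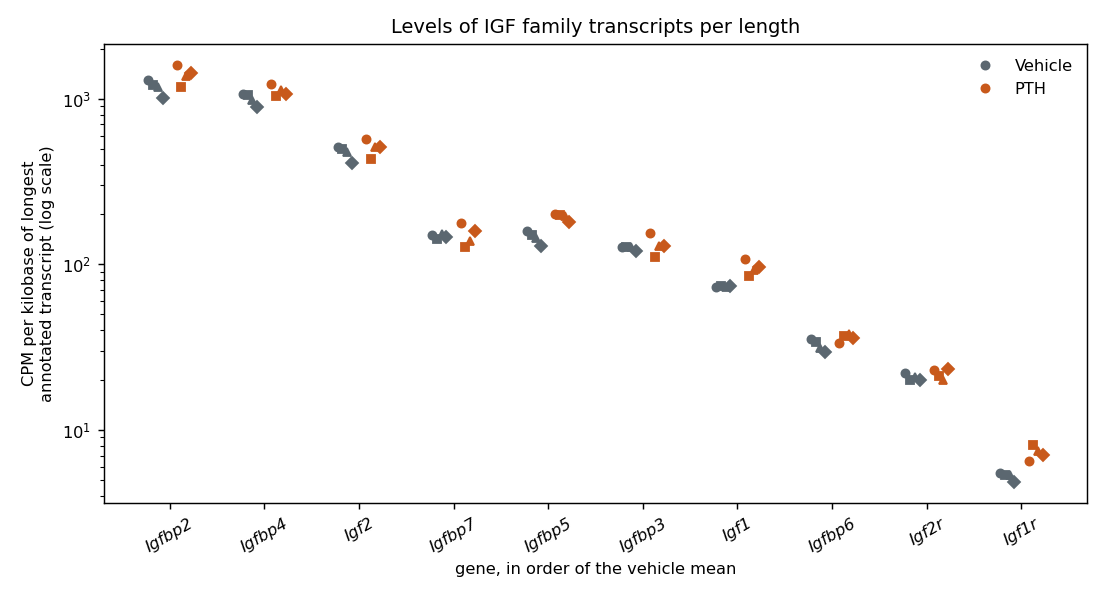
Level of each IGF family transcript in CPM per kilobase of the longest annotated transcript (vertical axis, log scale) for every vehicle (gray) and PTH (orange) sample, with the genes ordered by the vehicle mean. Igfbp2 and Igfbp4 were above all other family members in every sample, and Igf1r was below them, with either treatment.

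Binding protein transcripts outnumbered ligand transcripts in every sample. Summed over the 6 genes, IGFBP transcripts came to 2624 ± 215 CPM per kilobase with vehicle and 3027 ± 291 with PTH, and PTH replicate 2, at 2692, lay within the vehicle range. Igf1 and Igf2 together stood at 0.206 to 0.211 of that sum with vehicle and at 0.193 to 0.201 with PTH. Igfbp2 contributed 44.6% ± 0.887 of the IGFBP sum with vehicle and Igfbp4 38.1% ± 0.512, and with PTH they contributed 46.0% ± 1.66 and 37.0% ± 1.28. Which of them led depended on the length used: with the union of all annotated exons, Igfbp4 led with vehicle, at 41.0% against 39.1%, and Igfbp2 led with PTH, at 40.4% against 39.9%. The share of Igfbp5 was 5.51% to 5.62% in vehicle samples and 5.88% to 7.41% in PTH samples, which did not overlap. These shares were described without a test.

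For the ligands and receptors, the 3 genes of most similar pattern were sought among 14071 tested genes whose mean reached 1 CPM. Likeness was the root-mean-square difference, over the 8 samples, of log2(CPM + 0.1) relative to the vehicle mean, so a smaller value marks a closer pattern. The closest to Igf1 were Slc30a4 (0.0226), Ppp2ca (0.0291) and Eif4a3 (0.0405). Igf1r was closest to Eif4e3 (0.0409), Arid4b (0.0420) and Gm12191 (0.0518). The closest to Igf2 were Mfap2 (0.0261), Fcgrt (0.0287) and Mfap4 (0.0322), and to Igf2r they were Wwc2 (0.0344), Snx14 (0.0403) and Hspd1 (0.0427). All points share the same 8 libraries and their depth, and no shared function or control follows from these values.

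Of 57 genes around the family, in 5 lists, 51 were tested, 12 were upregulated and 14 were downregulated (edgeR, adjusted p under 0.05), with a median log2 fold change of -0.05. Over all tested genes 23.3% were upregulated and 22.5% downregulated, so the counts over the 5 lists together lay near that background. Of the 51, 7 were called and changed by a log2 of at least 1, 4 up and 3 down, against 7.36% up and 3.88% down over all tested genes.

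In the list of signaling genes downstream of IGF1R, 5 of 29 were upregulated and 11 were downregulated, against 23.3% and 22.5% of all tested genes, with a median of -0.13 against -0.00. The docking proteins IRS-1 and IRS-2, which link the receptor to phosphoinositide 3-kinase, moved in opposite directions. Irs2 was at 15.6, 15.3, 15.4 and 14.7 CPM in vehicle samples and at 96.0, 85.2, 91.0 and 92.9 CPM in PTH samples, a 5.99-fold increase (edgeR log2 fold change 2.58, adjusted p = 2.83e-11). Irs1 was at 143, 146, 139 and 148 CPM with vehicle and at 50.7, 46.8, 42.1 and 48.5 CPM with PTH, and fell by 1.61 on the log2 scale (edgeR adjusted p = 2.63e-09). For both genes the treatments were far apart and the replicates close together.

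The next largest increases in that list were those of Foxo1 (log2 fold change 0.98), a transcription factor that AKT keeps out of the nucleus, the adaptor Shc1 (0.43) and the mTORC1 activator Rheb (0.41). After Irs1, the largest decreases were those of Pik3r1 (-1.05), the regulatory subunit p85α of phosphoinositide 3-kinase, and of the adaptors Gab1 (-0.82) and Grb14 (-0.58), the latter an inhibitor of the insulin receptor. None of these 6 genes overlapped between treatments, and the edgeR adjusted p was at most 1.76e-04. They were picked as the largest called changes, so little overlap and a small p follow in part from that choice. Over the whole list, 14 of 29 genes did not overlap. Among all tested genes, 21.2% had every PTH sample above every vehicle sample and 21.8% had every PTH sample below. Among the smaller changes, the calls of Akt2 (up), Foxo3 and Eif4ebp1 (both down) were lost in some alternative fits, with an adjusted p under 0.05 in 9, 12 and 12 of 18. These last genes are named because of their values.

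Of 8 genes for IGFBP proteases and their inhibitors, 7 were tested, 2 were upregulated and 1 was downregulated (median 0.03), against 23.3% and 22.5% of all tested genes. The stanniocalcins, which inhibit PAPP-A proteases, moved in opposite directions. Stc1 was at 3.70 to 4.92 CPM in vehicle samples and at 6.95 to 11.5 CPM in PTH samples (edgeR log2 fold change 1.10, standard error 0.173, adjusted p = 2.62e-04). Stc2 was at 2.62 to 3.86 CPM (128 to 185 counts) in vehicle samples and 0.481 to 1.68 CPM (16 to 86 counts) in PTH samples, and fell by 1.34 on the log2 scale (standard error 0.316, edgeR adjusted p = 0.00426). The metalloprotease gene Adam9 rose from 132 ± 1.30 to 189 ± 17.7 CPM (edgeR log2 fold change 0.52, adjusted p = 9.64e-05). The protease genes Pappa (-0.07), Pappa2 (0.14), Htra1 (0.03) and Adam12 (-0.05) did not pass the test, and Adam28 had at most 2 counts in any sample.

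In the growth hormone axis, which drives Igf1 transcription in liver through STAT5, 2 of 6 genes were upregulated and 2 downregulated (median 0.11), where 23.3% and 22.5% of all tested genes were. The feedback inhibitors Cish (log2 fold change 1.41, edgeR adjusted p = 6.41e-06) and Socs2 (1.15, edgeR adjusted p = 1.13e-07) were upregulated. The transcription factor genes Stat5a (-0.46, edgeR adjusted p = 3.14e-04) and Stat5b (-0.75, edgeR adjusted p = 2.24e-05) were downregulated. In these 4 called genes, of the 6 in the list, the treatments did not overlap. Among all tested genes, 21.2% had every PTH sample above every vehicle sample and 21.8% had every PTH sample below. The receptor gene Ghr had a log2 fold change of 0.07 (interval -0.08 to 0.22), and the kinase gene Jak2 had 0.15 (interval -0.05 to 0.36).

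Of 7 genes for Igf2 mRNA binding proteins, imprinted neighbors and M6pr, 3 were upregulated and none was downregulated by edgeR (median 0.05), beside 23.3% and 22.5% of all tested genes. DESeq2 gave 2 and 0, and an unadjusted p under 0.05 gave 3 and 2. Igf2bp3, whose product binds Igf2 mRNA, had 19.4 to 21.8 CPM with vehicle and 23.6 to 29.0 CPM with PTH (edgeR log2 fold change 0.43, adjusted p = 0.00135). H19, the noncoding neighbor of Igf2 at a distance of 72622 bases, which is expressed from the maternal allele, had 1698 to 1846 CPM with vehicle and 2018 to 2213 CPM with PTH. H19 had a log2 fold change of 0.26 (edgeR adjusted p = 0.0127), and its adjusted p was under 0.05 in 14 of 18 alternative fits. M6pr, the gene of the other mannose 6-phosphate receptor, had a log2 fold change of 0.14 (edgeR adjusted p = 0.0491), a call present in 4 of 18 alternatives. Igf2bp1 (-0.33), Igf2bp2 (0.05), Airn (0.05) and Igf2os (-0.51, edgeR adjusted p = 0.0649) were not called, although the PTH samples of Igf2os, at 1.38 to 2.22 CPM, were all below its vehicle samples, at 2.53 to 2.86 CPM.

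Of 7 other IGF and insulin family genes, 2 were tested and neither passed by edgeR, with or without adjustment. The insulin receptor gene Insr was at 32.3 to 35.6 CPM with vehicle and 33.1 to 35.1 CPM with PTH (log2 fold change 0.00, interval -0.14 to 0.15). Igfals, which encodes the acid-labile subunit of the IGF complex in blood, had a log2 fold change of -0.20 (interval -0.59 to 0.18). The insulin genes Ins1 and Ins2 had 0 counts in all samples. Igfbp1, which lies 3539 bases from Igfbp3, had at most 9 counts, and Insrr had 10 counts in 1 vehicle sample and 0 elsewhere. Igfbpl1 had 0 counts in all 4 vehicle samples and 7, 9, 3 and 16 counts in the PTH samples, too few for the filter, and was called upregulated by DESeq2, which keeps such genes (adjusted p = 4.09e-04).

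**Figure D4:**
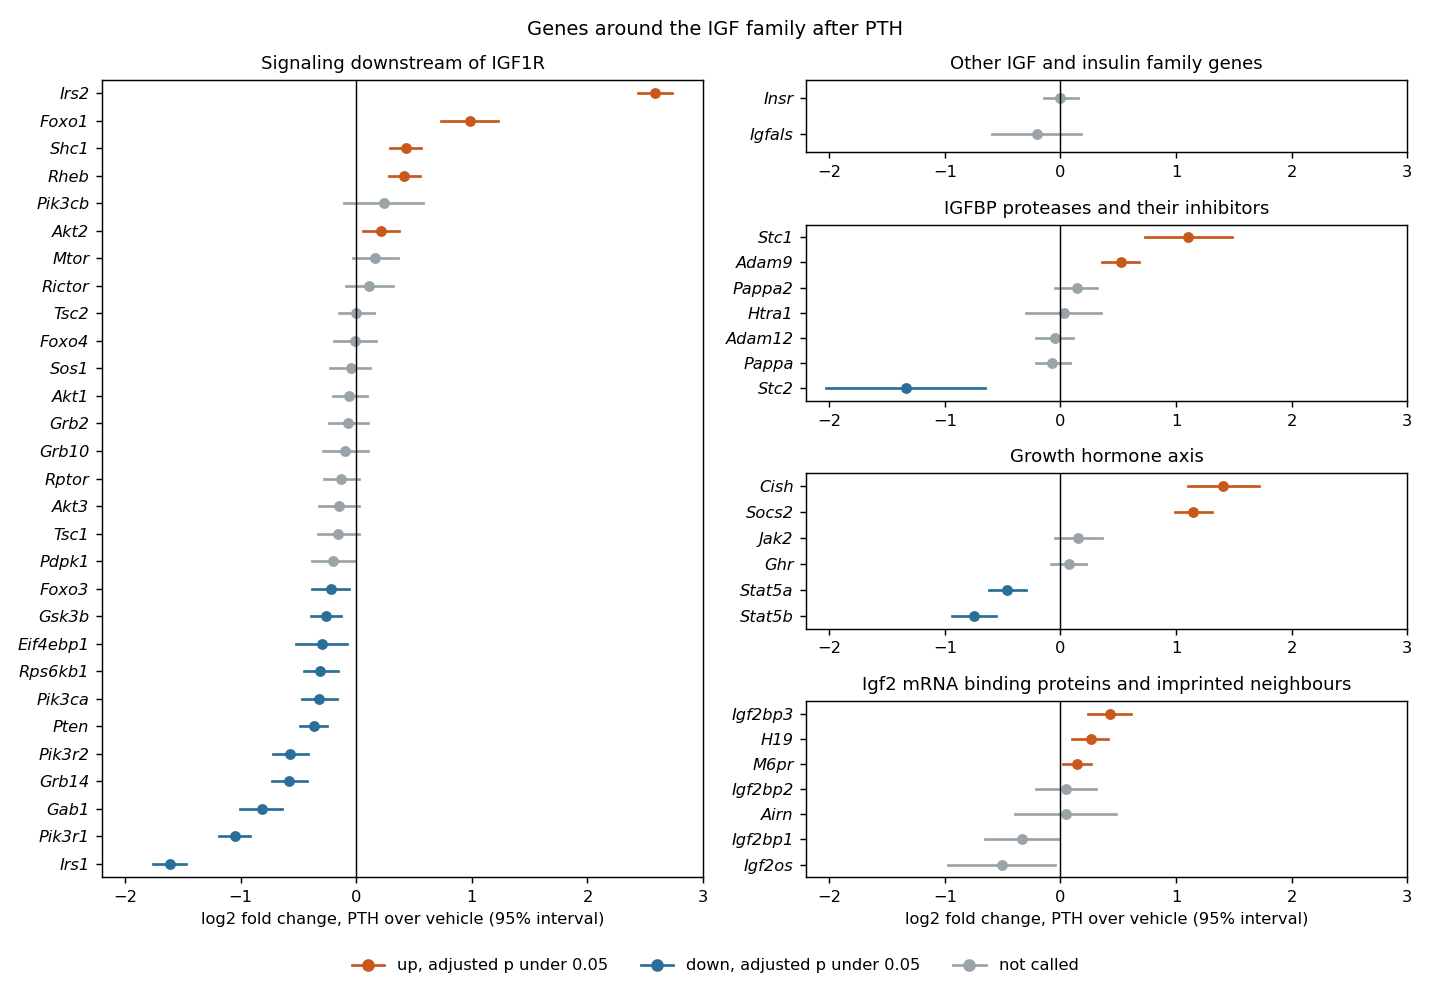
Log2 fold change with PTH over vehicle (horizontal axis), fitted by edgeR with 95% intervals, for the 51 tested genes of 5 lists around the IGF family. Orange marks upregulated genes, blue downregulated genes and gray genes that were not called, and Irs2 (2.58) and Irs1 (-1.61) stand at the ends of the signaling list.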

How the data were processed

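RNA was sequenced from 4 PTH-treated and 4 vehicle-treated samples, grouped by their labels. From libraries enriched for poly(A) RNA, the authors aligned reads to GRCm38 with Hisat2 and assembled transcripts with StringTie2. The deposited table holds raw counts per gene, which the authors made with StringTie2's companion script from transcript coverage. The annotation, the strand setting, the read length given to that script and tool versions are not given in the sources used here, and another read length would scale all counts. Total counts were 33605610 to 56090654 per sample. Depth limits genes of few counts, such as Igfbpl1, more than the 10 family members, each of which had at least 1356 counts in every sample.

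Genes were kept by filterByExpr (minimum count 10, minimum total 15), normalized by TMM and tested with edgeR 4.0.16 in R 4.3.3, two-sided, with Benjamini-Hochberg adjustment over 16736 genes. An adjusted p under 0.05 was called with no minimum fold change, as in the study. DESeq2 1.42.0, its size factors in edgeR, no filter, a replicate block, each sample left out, counts halved, summed by symbol or thinned, a length offset, leaving out the 10 most abundant genes, and a minimum log2 fold change of 1 were alternatives, as was division by library totals alone, added after the data were seen. Both tools were tested on simulated data. Single genes were compared by exact permutation (SciPy 1.17.1). Where symbols recur, the entry of highest mean count was used. Named genes were all members and all genes of the smaller lists, the 4 largest called changes each way in the signaling list, the 3 closest patterns, Tnfsf11 and chromosomal neighbors. The members and lists were chosen with earlier results of these data known. Protein sequences were not used here.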

Additional observations from a re-analysis of the deposited data

Results flagged for a closer look

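Samples far from the other 3 of their treatment were sought with Dixon's test in 122 groups of 4, where chance alone flags about 1 group in 20, and 7 were found. Igfbp3 was at 293 CPM in vehicle replicate 4 and at 306 to 308 CPM in the other vehicle samples. Igfbp5 was at 1083 CPM in PTH replicate 4 and at 1184 to 1202 CPM in the other PTH samples, and that sample was still above all vehicle samples. Vehicle replicate 4 also stood apart for Htra1 (496 CPM against 614 to 626), Ghr (103 CPM against 121 to 124) and Igf2os (2.86 CPM against 2.53 to 2.57). Stc1 was at 4.92 CPM in vehicle replicate 3 against 3.70 to 3.87 CPM in the others, and Foxo3 was at 86.5 CPM in vehicle replicate 1 against 97.2 to 98.6 CPM.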

How the results depend on the processing

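Igf1, Igf1r and Igfbp5 were upregulated in all 18 alternative fits, with log2 fold changes of 0.24 to 0.43, 0.34 to 0.52 and 0.29 to 0.46, and no family member was downregulated in any. A minimum log2 fold change of 1 left 0 family members upregulated, 4 pathway genes upregulated and 3 downregulated, and 1232 and 650 of all genes. Scaling by library totals without TMM shifted the median of all genes to -0.13, so that 35.0% of calls were increases against 50.9% with TMM. It gave 25 downregulated pathway genes in place of 14, and log2 fold changes of -0.04 for Igf2, -0.06 for Igf2r, -0.07 for Igfbp3 and -0.10 for Igfbp7. The length offset gave -0.08 for Igfbp6 and -0.17 for Igfbp7. Igfbp7 was at -0.01 without the filter on low counts. With 1 sample left out at a time, Igfbp3 ranged from -0.03 to 0.15 and Igfbp7 from -0.06 to 0.11. The causes of these shifts were not tested. Igfbp4 has no value without the 10 most abundant genes, being one of them.

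With the replicate block, 3 family members were upregulated and 0 downregulated, as were 3571 and 3432 of all genes. Same-numbered samples correlated at -0.0409 to 0.0274 after removal of treatment means, so no shared deviation was seen. With a single pair per number, these values cannot decide whether same-numbered samples came from a shared preparation. In the list of imprinted genes and Igf2 mRNA binding proteins, the block left 1 gene upregulated in place of 3.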
